A study of Homo sapiens with 7 samples.

Results

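The nuclear-encoded subunits of the oxidative phosphorylation complexes were followed across 4 RNA sequencing libraries of SNU398 cells, a line established from a human hepatocellular carcinoma. Members were the rows of the deposited gene table whose symbol begins with NDUFA, NDUFB, NDUFC, NDUFS, NDUFV, UQCR, COX4I, COX5, COX6, COX7, COX8 or ATP5, or is CYC1, SDHA, SDHB, SDHC or SDHD. Rows for assembly factors (8), pseudogenes (2) and an antisense gene (1) were left out, which gave 90 members of 23710 genes. The cells had received 30 µM of PEN-FFW, PEN-WT, PEN-MUT or PEN for 8 hours. PEN is penetratin, a peptide that carries cargo into cells, and the labels tie the series to peptides directed at SALL4, a transcription factor. The labels do not spell out how the FFW, WT and MUT peptides differ. Each peptide had 1 library of 1 cell line, so no difference below has a replicate check, no p-value was computed, and each printed error covers the counting of reads only.

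Oxidative phosphorylation passes electrons from NADH and succinate along complexes I to IV to oxygen, and the proton gradient built on the way drives ATP synthase, complex V. Complex I takes electrons from NADH, complex II from succinate, complex III hands them to cytochrome c, and complex IV reduces oxygen. Most subunits come from nuclear genes and are imported, while a small set is made from mitochondrial DNA. Many of the nuclear promoters are known targets of the transcription factors NRF1, GABP and YY1, and hepatocytes are rich in these complexes.

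The letters of those factors' motifs were looked for in the members' promoters, since shared promoter letters are a feature that the choice by symbol did not use. RefSeq promoter sequences (GRCh38.p14) matched 69 of the 90 members, and the 250 bases upstream of each start site were searched on both strands. The NRF1 letters, GCGCA, then any base, then GCGC, were present in 14 promoters (20.3%), against 10.9% of 9821 promoters of tested genes and 5.07% of all 35116 promoters. The GABPA letters CCGGAAG were present in 16 (23.2%), against 16.5% and 8.52%. The YY1 letters AAGATGGCG were present in 1 (1.45%), against 1.12% and 0.652%. The 3 motifs were counted separately, and matches of different motifs may lie in the same promoter or overlap. The windows below show 60 bases around a match in the promoters of 9 catalytic or structural members that are described below, and of NDUFA12, which had the lowest PEN-FFW value against PEN. They are read 5′ to 3′ along the gene's strand, capitals mark the searched letters or their reverse complement, and the windows were chosen for having a match.
NDUFS1 (chr2:206159569-206159628, minus strand): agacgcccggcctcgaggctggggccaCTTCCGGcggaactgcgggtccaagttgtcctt
NDUFS3 (chr11:47578945-47579004, plus strand): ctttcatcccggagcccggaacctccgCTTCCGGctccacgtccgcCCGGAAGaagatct
NDUFA12 (chr12:95003779-95003838, minus strand): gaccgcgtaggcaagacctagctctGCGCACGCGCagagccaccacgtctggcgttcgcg
SDHA (chr5:218129-218188, plus strand): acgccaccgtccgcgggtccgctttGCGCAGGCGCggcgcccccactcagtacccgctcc
SDHB (chr1:17054128-17054187, minus strand): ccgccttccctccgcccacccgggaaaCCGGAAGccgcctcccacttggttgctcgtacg
SDHD (chr11:112086738-112086797, plus strand): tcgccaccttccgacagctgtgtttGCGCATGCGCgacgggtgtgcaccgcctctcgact
UQCRC1 (chr3:48609659-48609718, minus strand): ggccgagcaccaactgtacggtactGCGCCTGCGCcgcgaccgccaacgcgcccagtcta
UQCRFS1 (chr19:29213152-29213211, minus strand): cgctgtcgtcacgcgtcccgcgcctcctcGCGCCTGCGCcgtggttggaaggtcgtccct
COX5B (chr2:97645998-97646057, plus strand): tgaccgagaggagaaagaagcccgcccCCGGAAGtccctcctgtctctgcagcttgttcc
ATP5C1 (chr10:7788117-7788176, plus strand): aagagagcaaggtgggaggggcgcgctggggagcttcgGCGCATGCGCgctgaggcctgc
For the NRF1 and the GABPA motif, the medians of members with and without the letters were near each other in PEN-FFW against PEN-MUT. For the NRF1 letters the median log2 difference between PEN-FFW and PEN-MUT was -0.21 over 13 members with them and -0.25 over 51 without. For the GABPA letters the same medians were -0.27 over 16 and -0.23 over 48. In PEN-FFW against PEN, the medians with and without the NRF1 letters were -0.12 and -0.15. For the GABPA letters they were further apart there, at -0.19 and -0.12.

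The table held 27347377 reads for PEN-FFW, 40717633 for PEN-WT, 32043544 for PEN-MUT and 37784093 for PEN, in genes above its floor of 5 normalised reads. Of the 23710 genes, 12578 had a mean of at least 50 normalised reads and are called tested genes here, and 80 of the 90 members were among them. As deposited, the median tested gene was lower in PEN-FFW, at -0.27 log2 units against PEN, -0.30 against PEN-MUT and -0.30 against PEN-WT, while the other 3 pairs lay within 0.03. Every difference below is therefore the log2 of normalised reads plus 10 in the first-named library minus that in the second, set against that of the median tested gene. Of 12 hepatocyte or hepatocellular markers, 5 (APOB, TTR, TF, SERPINA1 and HNF4A) sat at the floor in all 4 libraries, as did KRT8 and KRT18 of 4 epithelial ones. Hepatocyte or hepatocellular markers, mostly SALL4 and GPC3, summed to 2469 normalised reads in PEN-FFW, 2924 in PEN-WT, 2994 in PEN-MUT and 3231 in PEN. Of the markers of other cells, 3 of 4 immune (all but PTPRC) and 3 of 3 endothelial ones were at the floor, and the 4 fibroblast ones, mostly DCN, summed to 1603 in PEN-FFW, 2024 in PEN-WT, 2344 in PEN-MUT and 2019 in PEN. That sum was lowest in PEN-FFW and highest in PEN-MUT, as the members were after centring. The marker sums are not centred, and without centring the median tested gene was also lower in PEN-FFW. After centring, DCN was -0.18 for PEN-FFW against PEN and 0.19 for PEN-MUT against PEN. COL1A1 was 1.02 for PEN-FFW against PEN. The part of these markers in the results was not tested.

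Oxidative phosphorylation transcripts sat highest in the PEN-MUT library and lowest in the PEN-FFW library, with PEN-WT and PEN between them. After centring, PEN-MUT was the highest of the 4 libraries for 75 of the 80 members (27% of all tested genes), and PEN-FFW was the lowest for 72 (39.5% of all tested genes). Both held for 68 members, or 85%, against 17.9% of all tested genes. PEN-FFW was the highest for 0 members (31.7% of all), PEN-WT for 1 (14.7%) and PEN for 4 (26.6%). PEN-WT was the lowest for 5 (15.6%), PEN-MUT for 1 (19.3%) and PEN for 2 (25.6%). The steps were small: no member that passed the filter differed by 1.5-fold in any of the 6 pairs. As a share of all reads above the floor, the members took 1.07% in PEN-FFW (95% Wilson interval 1.07 to 1.08), 1.16% in PEN-WT (1.16 to 1.16), 1.24% in PEN-MUT (1.23 to 1.24) and 1.16% in PEN (1.15 to 1.16). In bulk RNA, a change in the mix of cells and a change in RNA per cell cannot be told apart. Of the exceptions, NDUFA12, ATP5D, ATP5E and UQCR11 were highest in PEN, and ATP5S was highest in PEN-WT and lowest in PEN-MUT. For each of these genes the lead of the highest library over the next lay within its 95% counting error. Before centring, ATP5D and UQCR11 had slightly more normalised reads in PEN-WT than in PEN.

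**Figure D1:**
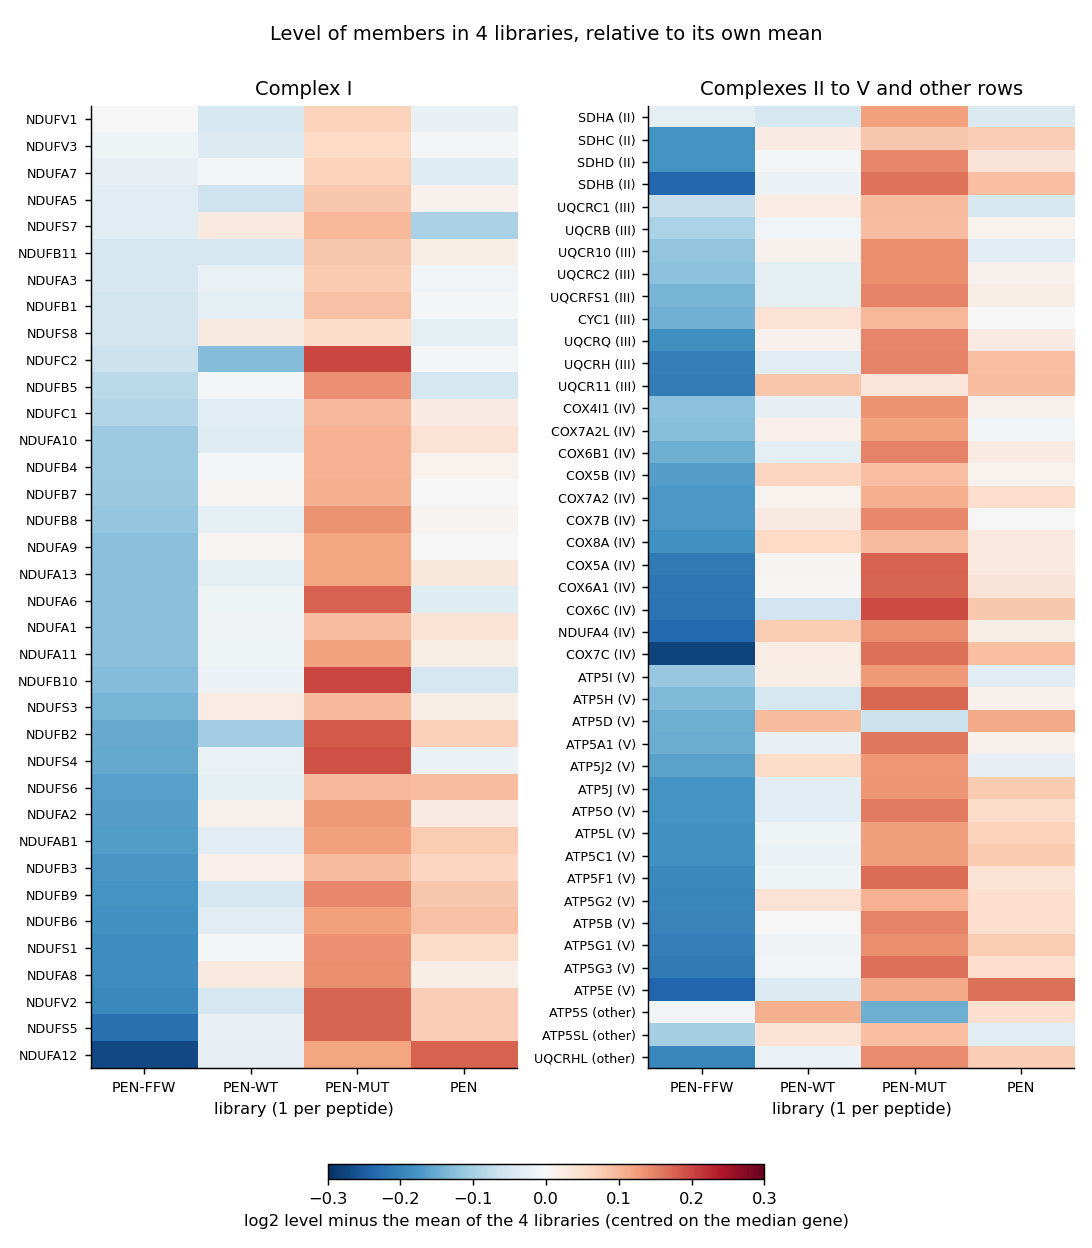
Colour gives the log2 level of 79 of the 80 members in each library (1 library per peptide) minus its mean over the 4 libraries, with each library centred on its median tested gene. Complex I is on the left, complexes II to V and other rows on the right, and over the 80 members PEN-FFW is the lowest library for 72 and PEN-MUT the highest for 75.

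Measured against PEN, 74 of the 80 members lay below the median tested gene in PEN-FFW and 6 above it, where 50% of tested genes lie on each side by construction. The median member difference was -0.15, with quartiles of -0.23 and -0.09, and the middle 50% of all tested genes ran between -0.15 and 0.21. Of the members, 8 were at least 1.2-fold lower (9.87% of tested genes were) and 0 were at least 1.2-fold higher (20.8% of tested genes were), so a share of 10% lower is near the background while the higher side is empty. The medians by complex were -0.11 for the 37 members of complex I, -0.21 for the 4 of complex II, -0.12 for the 9 of complex III, -0.20 for the 12 of complex IV and -0.23 for the 15 of complex V. The difference of -0.15 shrank to -0.07 against tested genes of the same mean normalised read count, and to -0.03 against other genes of the same transcript length and count.

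**Figure D2:**
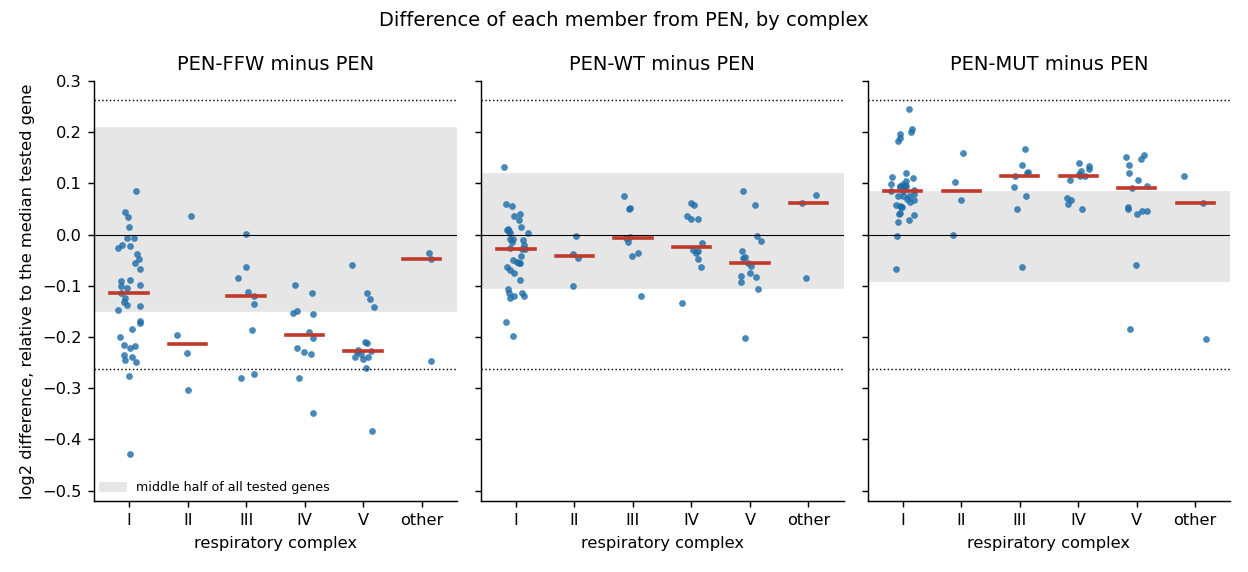
Each point is 1 of the 80 members, placed by complex, and the vertical axis is its log2 difference from PEN in PEN-FFW (left panel), in PEN-WT (middle panel) and in PEN-MUT (right panel), relative to the median tested gene. Red bars are medians, the grey band is the middle 50% of all tested genes and dotted lines mark 1.2-fold; nearly all points lie under 0 on the left and over 0 on the right.

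In complex I, the core subunits were spread, from below the median gene to slightly above it. For the highest, NDUFS7 and NDUFV1, the 95% counting interval in PEN-FFW against PEN spanned 0. NDUFV1, the subunit that binds NADH and the flavin (chr11:67373124-67380025, plus strand, GRCh37 as for all gene positions below), had 4559.6 normalised reads in PEN-FFW, 5369 in PEN-WT, 5740.0 in PEN-MUT and 5332 in PEN. Its partner in the same NADH-oxidising arm, NDUFV2 (chr18:9102628-9134343, plus strand), had 1511 normalised reads in PEN-FFW, 2033 in PEN-WT, 2348 in PEN-MUT and 2165 in PEN. PEN-FFW was the low library for NDUFV2 and, before centring, for NDUFV1 as well. Relative to the median gene NDUFV1 was 0.04 ± 0.027 and NDUFV2 -0.25 ± 0.045 in PEN-FFW against PEN. The gap between them was -0.29, with a 95% counting interval of -0.39 to -0.19. NDUFS1, an iron-sulphur core subunit of the same arm, had 5577 normalised reads in PEN-FFW, 7693 in PEN-WT, 8367 in PEN-MUT and 7829 in PEN. It differed by -0.22 ± 0.024, close to NDUFV2 and -0.26 from NDUFV1 (interval -0.33 to -0.19). These pairs were chosen after their values were seen. Their canonical transcripts also differed in GC content, at 60.6% for NDUFV1, 44.9% for NDUFV2 and 41.8% for NDUFS1. The part of GC content in this and the other gaps below was not tested.

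The core subunits nearer to the quinone were spread as well. NDUFS3 was -0.14 ± 0.035 in PEN-FFW against PEN. NDUFS8, an iron-sulphur subunit, was -0.01 ± 0.038. NDUFS7, next to the quinone site (chr19:1383526-1395588, plus strand), had 1282 normalised reads in PEN-FFW, 1633 in PEN-WT, 1688 in PEN-MUT and 1459 in PEN. It was the highest of the 80 members against PEN both in PEN-FFW, at 0.09 ± 0.052, and in PEN-WT, at 0.13 ± 0.046. The 7 core subunits thus ran between -0.25 and 0.09, around a median of -0.14.

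Among the 30 accessory subunits, which surround the core, the PEN-FFW medians were -0.11 against PEN and -0.21 against PEN-MUT. NDUFA12 (chr12:95289073-95397524, minus strand) was the lowest member against PEN. It had 1871 normalised reads in PEN-FFW, 2708 in PEN-WT, 2947 in PEN-MUT and 3042 in PEN, a difference of -0.43 ± 0.040 in PEN-FFW and -0.20 ± 0.034 in PEN-WT against PEN. NDUFA12 was thus highest in PEN and not in PEN-MUT, unlike most members. NDUFS5 had 3792 normalised reads in PEN-FFW, 5319.6 in PEN-WT, 6001 in PEN-MUT and 5542 in PEN, and was -0.36 ± 0.029 in PEN-FFW against PEN-MUT. NDUFA7, NDUFV3 and NDUFA5 stood at the other end, at 0.03 ± 0.079, 0.01 ± 0.054 and -0.02 ± 0.044 in PEN-FFW against PEN.

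Complex II split by subunit. SDHA, the flavoprotein that oxidises succinate (chr5:218418-257197, plus strand), had 2931 normalised reads in PEN-FFW, 3514 in PEN-WT, 3909 in PEN-MUT and 3446 in PEN. SDHB, the iron-sulphur subunit that takes its electrons (chr1:17345159-17380527, minus strand), had 3565 normalised reads in PEN-FFW, 5062 in PEN-WT, 5651 in PEN-MUT and 5315 in PEN. Both were lowest in PEN-FFW and highest in PEN-MUT before centring, but by unequal amounts. In PEN-FFW against PEN, SDHA was 0.04 ± 0.034 and SDHB -0.30 ± 0.029, a gap of -0.34 with a 95% counting interval of -0.43 to -0.25, for a pair chosen after its values were seen. GC content was 52.5% for SDHA and 46.0% for SDHB. The membrane anchors SDHC, with 1292 normalised reads in PEN-FFW, 1813 in PEN-WT, 1858 in PEN-MUT and 1832 in PEN, and SDHD, with 3209 normalised reads in PEN-FFW, 4417 in PEN-WT, 4834 in PEN-MUT and 4436 in PEN, lay nearer to SDHB, at -0.23 ± 0.049 and -0.20 ± 0.031. The SDHA value carries a doubt, because pseudogene copies can share its reads. SDHAP1 was 0.39 and SDHAP2 0.70 in PEN-FFW against PEN, from 188 and 311 normalised reads in PEN-FFW.

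In complex III, the catalytic subunits were lower in PEN-FFW by modest amounts and UQCRC1 was level with the median gene. CYC1, cytochrome c1, had 8712 normalised reads in PEN-FFW, 12086 in PEN-WT, 12375 in PEN-MUT and 11426 in PEN. UQCRFS1, the Rieske iron-sulphur protein, had 2066 normalised reads in PEN-FFW, 2722 in PEN-WT, 3030.0 in PEN-MUT and 2742 in PEN. Their differences in PEN-FFW against PEN were -0.12 ± 0.019 and -0.14 ± 0.039. UQCRC1, a core protein, had 6486 normalised reads in PEN-FFW, 8411 in PEN-WT, 8725 in PEN-MUT and 7819.7 in PEN, and stood at 0.00 ± 0.023, at the median gene. UQCRH, the hinge protein, was -0.27 ± 0.023, a gap of -0.27 from UQCRC1 (counting interval -0.34 to -0.21, chosen after the values were seen). GC content was 45.8% for UQCRH and 58.3% for UQCRC1. UQCR11, a small subunit, had 1506 normalised reads in PEN-FFW, 2252 in PEN-WT, 2147 in PEN-MUT and 2210.2 in PEN, and so was not highest in PEN-MUT.

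Complex IV was lower in PEN-FFW against PEN for each of the 12 members that passed the filter, between -0.35 and -0.10. The 12 included COX7A2L, which joins complexes III and IV and was not counted as a subunit. The 11 ubiquitous subunits ran between -0.35 and -0.11. COX7C, a small subunit (chr5:85913745-85916779, plus strand), had 2737 normalised reads in PEN-FFW, 4111 in PEN-WT, 4474 in PEN-MUT and 4206 in PEN. This was -0.35 ± 0.033 against PEN and -0.41 ± 0.034 against PEN-MUT, a fold of 0.753, the lowest of the 80 members in that pair. COX4I1, the ubiquitous form of its subunit, had 8139.7 normalised reads in PEN-FFW, 10614 in PEN-WT, 11665 in PEN-MUT and 10622 in PEN, and was -0.11 ± 0.020 in PEN-FFW against PEN, a gap of -0.23 from COX7C (interval -0.31 to -0.16, chosen after the values were seen). GC content was 40.7% for COX7C and 52.7% for COX4I1. COX5A was -0.22 ± 0.035, and COX5B, its partner in name but a distinct protein, was -0.16 ± 0.033. COX6C had 4032 normalised reads in PEN-FFW, 5505 in PEN-WT, 6459 in PEN-MUT and 5910.1 in PEN, which placed it -0.38 ± 0.028 in PEN-FFW against PEN-MUT. NDUFA4, named for complex I and found in complex IV, had 5426 normalised reads in PEN-FFW, 8182 in PEN-WT, 8423 in PEN-MUT and 7670.2 in PEN, and was the lowest member in PEN-FFW against PEN-WT, at -0.29 ± 0.023.

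Comparing PEN-FFW with PEN, the 15 members of complex V that passed the filter were each below 0. Their interquartile range was 0.06, against 0.08 for complex IV, 0.16 for complex I and 0.36 for all tested genes, while by SD complex IV was the narrower, at 0.071 against 0.076 for complex V. ATP5B, the catalytic beta subunit (chr12:57031959-57039768, minus strand), had 27979 normalised reads in PEN-FFW, 39198 in PEN-WT, 42786 in PEN-MUT and 39570.3 in PEN. Per kilobase of canonical transcript it was the most abundant member, at a mean of 21253 normalised reads, and the counting error of its difference from PEN in PEN-FFW was correspondingly small (-0.23 ± 0.011). The alpha subunit ATP5A1 was -0.14 ± 0.018 and the gamma subunit ATP5C1 -0.24 ± 0.029. The 3 genes for subunit c of the rotor, which encode the same mature protein, lay close together in PEN-FFW against PEN. ATP5G1 was -0.26 ± 0.037, ATP5G2 -0.23 ± 0.021 and ATP5G3 -0.24 ± 0.023. The gap between ATP5G3 and ATP5G1 was 0.02 with a counting interval of -0.07 to 0.10. In PEN-WT against PEN-MUT that gap was -0.02 (-0.10 to 0.05). The gap between ATP5G3 and ATP5G2 there was -0.11 (-0.17 to -0.06). GC content was 38.5% for ATP5G3 and 55.1% for ATP5G1.

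ATP5D, the delta subunit (chr19:1241745-1244824, plus strand), departed from the alpha, beta and gamma subunits in PEN-MUT. It had 1013 normalised reads in PEN-FFW, 1464 in PEN-WT, 1290.0 in PEN-MUT and 1446 in PEN, so that PEN-MUT stood below PEN-WT and PEN. Its difference in PEN-MUT against PEN was -0.18 ± 0.053, where ATP5A1 was 0.14 ± 0.016, a gap of -0.32 with a counting interval of -0.43 to -0.21, for a pair chosen after its values were seen. ATP5S, called factor B and no subunit of the enzyme, did likewise, with 331 normalised reads in PEN-FFW, 440.1 in PEN-WT, 362 in PEN-MUT and 412 in PEN. It was -0.20 ± 0.097 in PEN-MUT against PEN and 0.27 ± 0.095 in PEN-WT against PEN-MUT. ATP5E, the epsilon subunit, was counted at only 57 normalised reads in PEN-FFW, 84 in PEN-WT, 93 in PEN-MUT and 96 in PEN. Its difference of -0.38 ± 0.20 in PEN-FFW against PEN had a counting interval that spans 0 (-0.77 to 0.01), and a read-through row with SLMO2 sat at the floor in all 4 libraries.

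PEN-FFW against PEN-MUT gave the widest separation of the 6 pairs. Of the 80 members, 79 lay below the median tested gene and 34 were at least 1.2-fold lower, against 6.27% of tested genes, while 0 were at least 1.2-fold higher, against 19.8%. The median was -0.24, with an interquartile range of 0.11 against 0.33 for all tested genes. The 34 comprised 11 of 37 in complex I, 2 of 4 in complex II, 2 of 9 in complex III, 6 of 12 in complex IV, 12 of 15 in complex V and the UQCRH copy UQCRHL. The lowest were COX7C, COX6C, SDHB and NDUFS5, between -0.41 and -0.36. ATP5S was the only one of the 80 above the median gene, at 0.17 ± 0.10, followed by NDUFV1 at -0.03 ± 0.028, NDUFV3 at -0.04 ± 0.056 and ATP5D at -0.05 ± 0.059. Against tested genes of the same mean read count the median was -0.16, with 13 members at least 1.2-fold lower against 7.66% of tested genes under that setting. Against genes of the same transcript length it was -0.12, with 7 against 4.20%. Against other genes of the same length and count together, an alternative added after the data were seen, it was -0.06, with 4 of 79 against 6.51%, a share below that of tested genes.

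**Figure D3:**
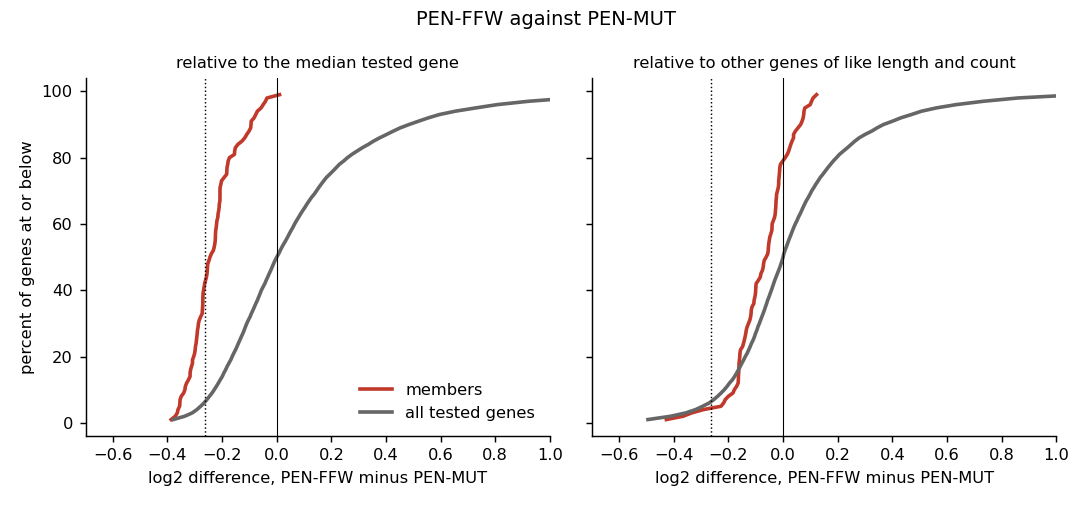
Cumulative percent of genes (vertical axis) at or below each log2 difference of PEN-FFW minus PEN-MUT (horizontal axis), for members in red and all tested genes in grey, relative to the median tested gene on the left and to other genes of like transcript length and read count on the right. The dotted line marks 1.2-fold lower; the member median is -0.24 on the left and -0.06 on the right.

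PEN-MUT against PEN showed a narrow spread and a shift to the high side. Of the members, 73 lay above the median tested gene and 7 below, with a median of 0.09 and an interquartile range of 0.07. No member reached 1.2-fold: 0 were higher, against 4.06% of tested genes, and 0 lower, against 5.36%. The medians were 0.09 for complex I, 0.08 for complex II, 0.11 for complex III, 0.11 for complex IV and 0.09 for complex V. The highest were NDUFB10, with 1909 normalised reads in PEN-FFW, 2517 in PEN-WT, 2882 in PEN-MUT and 2395 in PEN and a difference of 0.24 ± 0.038, NDUFA6 at 0.21 ± 0.035, NDUFS4 at 0.20 ± 0.057 and NDUFC2 at 0.20 ± 0.059, which are accessory subunits of complex I. The lowest were ATP5S, ATP5D, NDUFA12 at -0.07 ± 0.036 and UQCR11 at -0.06 ± 0.042. The median was 0.05 against genes of the same length and 0.06 against other genes of the same length and count.

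In PEN-WT the members were near their PEN level. Against PEN, 56 lay below the median tested gene and 24 above, the median was -0.03, and 0 were 1.2-fold higher (9.29% of tested genes) or lower (5.92%). That sign depended on the genes compared with: the median was 0.02 against other genes of the same length and count. The ends of the distribution were ATP5E and NDUFA12 on the low side, then NDUFB2 at -0.17 ± 0.051 and COX6C at -0.13 ± 0.024, and on the high side NDUFS7, then ATP5J2 at 0.08 ± 0.034, ATP5SL at 0.08 ± 0.040 and UQCRC1 at 0.07 ± 0.020. Of these, ATP5SL was not counted as a subunit.

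PEN-WT against PEN-MUT placed 77 of the 80 members below the median gene, with a median of -0.12. At 1.2-fold, 2 were lower (1.37% of tested genes) and 1 higher (8.36%). NDUFC2, with 811 normalised reads in PEN-FFW, 945 in PEN-WT, 1172 in PEN-MUT and 1006 in PEN, was the lowest at -0.31 ± 0.058, followed by NDUFB2 at -0.27 ± 0.052, COX6C at -0.23 ± 0.025 and NDUFV2 at -0.21 ± 0.041. The 3 above the median gene were ATP5S, ATP5D at 0.18 ± 0.052 and UQCR11 at 0.07 ± 0.041, and COX5B was next at 0.00 ± 0.029. The median was -0.06 against genes of the same length and -0.03 against other genes of the same length and count.

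PEN-FFW against PEN-WT placed 74 members below the median gene and 6 above, with a median of -0.12. At 1.2-fold, 3 were lower (2.7% of tested genes) and 0 higher (14.2%). NDUFA4, COX7C at -0.28 ± 0.033, UQCR11 at -0.28 ± 0.044 and NDUFA12 at -0.23 ± 0.040 were the lowest. NDUFC2 at 0.08 ± 0.063, NDUFV1 at 0.07 ± 0.027, NDUFA5 at 0.05 ± 0.044 and NDUFV3 at 0.04 ± 0.053 were the highest. The median was -0.03 against other genes of the same length and count. The 3 pairs with PEN share the PEN library, and the pairs with PEN-MUT or PEN-WT share those libraries, so the 6 sets of values are not independent.

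The members share features that also went with the PEN-FFW differences over the whole transcriptome. They are short: the median canonical transcript was 804 bases over the 79 members with a length, against 3402 bases over 12115 tested genes, and 57.0% were under 1000 bases against 6.03%. They are abundant, with a median of 3352 normalised reads against 1091. Across all tested genes the PEN-FFW minus PEN-MUT difference had a Spearman correlation of 0.30 with transcript length and -0.38 with mean read count, as a description over genes that share the same 2 libraries. Across the members the same values were 0.14 for length (79 members) and -0.24 for count (80 members). For PEN-MUT minus PEN, the correlation with length was -0.15 over tested genes and 0.14 over members. With read count it was -0.009 and 0.17. In the shortest of 20 length bins, with a median length of 687.5 bases, the 43 members had a median of -0.25 in PEN-FFW against PEN-MUT, and the other genes -0.16. In each longer bin that held members, at most 8 of them, the gap was wider, except in the ninth. In the second bin, 8 members had a median of -0.27 and the other genes -0.13. In the eighth, 3 members had -0.33 and the other genes -0.01. In the ninth, 2 members had -0.04 and the other genes -0.02. For PEN-MUT against PEN, the medians in the shortest bin were 0.09 for the members and 0.05 for the other genes. Median GC content was alike, at 47.5% for members and 48.3% for tested genes, but GC content also went with the differences. Its Spearman correlation with PEN-FFW minus PEN-MUT was 0.33 across tested genes and 0.39 across the 79 members. For PEN-FFW minus PEN it was 0.36 and 0.27. Against tested genes of the same GC content, PEN-MUT was highest and PEN-FFW lowest for 65 of 79 members, or 82.3%, against 14% of tested genes. Against other genes of the same length and count, 26 of 79 members (32.9%) had that order, against 11.7% of tested genes.

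**Figure D4:**
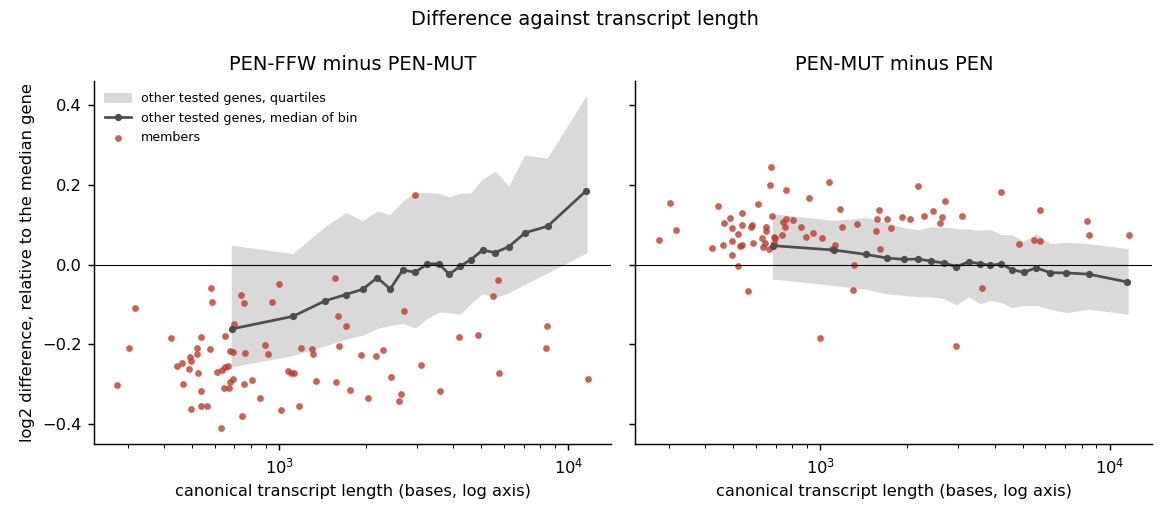
Log2 difference relative to the median gene (vertical axis) against canonical transcript length in bases (log axis), for PEN-FFW minus PEN-MUT on the left and PEN-MUT minus PEN on the right. Red points are the 79 members with a length, and the grey line and band are the median and quartiles of the other tested genes in 20 length bins; in the shortest bin the member and other medians are -0.25 and -0.16 on the left, and 0.09 and 0.05 on the right.

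Nuclear-retained RNAs, listed as a sign of RNA quality, were highest where the members were lowest. MALAT1, NEAT1 and KCNQ1OT1 summed to 66463 normalised reads in PEN-FFW, 51279.9 in PEN-WT, 40312 in PEN-MUT and 50353 in PEN, highest in PEN-FFW and lowest in PEN-MUT. Their part in the result was not tested.

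Comparing PEN-FFW with PEN, each of 6 other gene lists of the pathway had a median under 0, and each held genes on both sides of 0. The import machinery, which brings the subunits into mitochondria, had the lowest median: its 20 genes had medians of -0.29 under PEN-FFW, -0.15 under PEN-WT and -0.04 under PEN-MUT against PEN, and 13 were at least 1.2-fold lower in PEN-FFW, against 9.87% of tested genes. TIMM10 and TIMM8A, small chaperones of the intermembrane space, were the farthest from 0, at -0.57 ± 0.053 and -0.42 ± 0.082 in PEN-FFW. The import genes were thus low in PEN-WT as well, and not high in PEN-MUT, where the member median was 0.09. The difference between the lists was not tested. All 6 lists are given relative to the median tested gene only, and not against genes of the same length and count.

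The 13 complex I assembly factors had medians of -0.05 under PEN-FFW, -0.03 under PEN-WT and 0.09 under PEN-MUT against PEN, with 4 above the median gene and 9 below in PEN-FFW, and 2 at least 1.2-fold lower, near the 9.87% of tested genes. NDUFAF4, one of them, had 514 normalised reads in PEN-FFW, 635 in PEN-WT, 706 in PEN-MUT and 957 in PEN, and was lower than PEN in each of the other 3 (-0.61 under PEN-FFW, -0.62 under PEN-WT and -0.46 under PEN-MUT). NUBPL, an iron-sulphur factor for complex I, was -0.34 in PEN-FFW. Of 34 assembly factors for complexes II to V, 32 passed the filter, with medians of -0.11 under PEN-FFW, -0.05 under PEN-WT and 0.01 under PEN-MUT, and 8 lay above the median gene and 24 below in PEN-FFW. COX19, a copper-related assembly factor of complex IV, was 0.41 ± 0.055 in PEN-FFW, and SDHAF3 (ACN9 in the table), for complex II, was -0.39 ± 0.071.

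The 15 electron carrier genes, cytochrome c, the coenzyme Q pathway and electron transfer flavoprotein, had medians of -0.07 under PEN-FFW, 0.01 under PEN-WT and 0.08 under PEN-MUT. COQ10A was 0.34 ± 0.094 and PDSS1 -0.32 ± 0.093 in PEN-FFW. The 13 enzymes of the tricarboxylic acid cycle, which supplies NADH and succinate, had medians of -0.08 under PEN-FFW, -0.02 under PEN-WT and 0.07 under PEN-MUT, with the farthest from 0 being IDH3A at -0.34 and MDH2 at -0.19 in PEN-FFW. Of 13 regulators of mitochondrial genes, 12 passed, with medians of -0.06 under PEN-FFW, -0.10 under PEN-WT and -0.13 under PEN-MUT. TFB2M, a factor for mitochondrial transcription, was -0.50 ± 0.069 and GABPB1, a GABP subunit, -0.49 ± 0.052 in PEN-FFW. In PEN-FFW 5 regulators lay above the median gene and 7 below. PPARGC1B and PPRC1, coactivators of the same family as PPARGC1A, were 0.25 and 0.11 in PEN-FFW against PEN, and 0.66 and 0.44 against PEN-MUT, and were named after their values were seen. PPARGC1A, a coactivator of these genes, sat at the floor in all 4 libraries. The 13 genes encoded by mitochondrial DNA were not analysed here, so no value here bears on them.

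**Figure D5:**
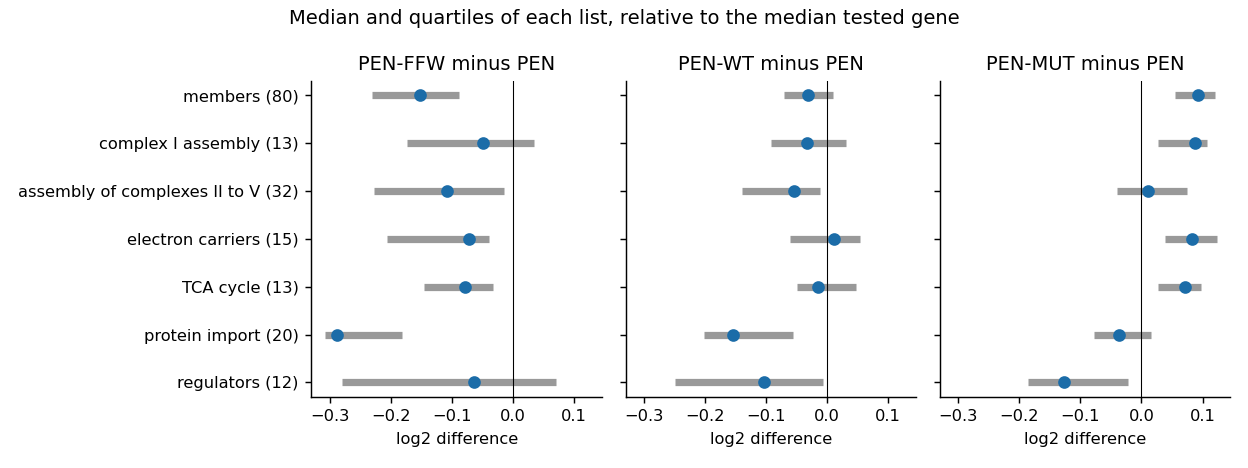
Points are the median log2 difference from PEN of each gene list and bars its quartiles, with PEN-FFW in the left panel, PEN-WT in the middle one and PEN-MUT in the right one, relative to the median tested gene, with the number of genes that passed the filter in brackets. In the PEN-FFW panel the members lie at -0.15 and the import list at -0.29, and in the PEN-MUT panel they lie at 0.09 and -0.04.

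The 10 members that did not pass the filter were tissue isoforms, a gene copy, NDUFA4L2 and read-through rows. COX4I2, a lung form, COX7B2 and COX8C, testis forms, and the read-through rows ATP5J2-PTCD1 and NDUFC2-KCTD14 sat at the floor in all 4 libraries, and COX6A2, a muscle form, stayed at or near it. Among the rest, COX7A1, a muscle form, had 36 normalised reads in PEN-FFW, 19 in PEN-WT, 12 in PEN-MUT and 13 in PEN, from 39 reads in PEN-FFW, 25 in PEN-WT, 12 in PEN-MUT and 15 in PEN. Its difference in PEN-FFW against PEN was 1.30 ± 0.28 (counting interval 0.76 to 1.84), a value from few reads of a row that failed the filter. COX6B2, a testis form, had 23 in PEN-FFW, 26 in PEN-WT, 18 in PEN-MUT and 9 in PEN. NDUFA4L2, a relative of NDUFA4 that hypoxia is known to raise, had 43 in PEN-FFW, 42 in PEN-WT, 38 in PEN-MUT and 39 in PEN. Its centred difference in PEN-FFW against PEN was 0.40 ± 0.24, with a counting interval that spans 0 (-0.07 to 0.88). ATP5L2, a copy of ATP5L, had 11 in PEN-FFW, 6 in PEN-WT and 5, the floor, in PEN-MUT and PEN.

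Other rows may share reads with a near-identical or overlapping partner. UQCRHL, a copy of UQCRH, had 117 normalised reads in PEN-FFW, 165 in PEN-WT, 183 in PEN-MUT and 172 in PEN, and its difference in PEN-FFW against PEN was -0.25, beside -0.27 for UQCRH. The strand setting of the counting is not given in the sources used here. Whether reads of a gene and an overlapping antisense gene, such as NDUFB2 and NDUFB2-AS1, were kept apart is therefore not known. In PEN-FFW against PEN, NDUFB2 was -0.20 and NDUFB2-AS1 0.26, from 956 and 26 normalised reads in PEN-FFW.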

How the data were processed

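RNA from 4 libraries, 1 per peptide, was compared; 3 of the 7 samples of the series, chromatin libraries and input, were not analysed here. The log2 values deposited by the authors are, read from the values, whole reads times 1 factor per library (100% within 0.1 read), with products under 5 set to 5. Alignment with STAR 2.4.0i to hg19 and counting with featureCounts 1.5.0-p1 come per the submitters' processing notes; which annotation, strand setting and normalization were used is not given in the sources here. Reads were recovered by dividing by the factor. Differences are log2(normalised reads + 10), kept for genes with a mean of at least 50, centred on the median such gene, with a fold threshold of 1.2. Counting errors are Poisson, with 1 standard error printed after ±, and cover counting error only, since reads are not independent molecules. Canonical transcripts came from GENCODE v44 lifted to GRCh37, and promoters from RefSeq. Alternatives changed the pseudocount, filter, centring, factors, fold and comparison genes. For each pair, the 4 lowest and 4 highest members and the catalytic subunits were named; others were named after their values were seen, and the values of 1 member are not reported here. The members and lists were chosen with earlier results of these data known. Scripts (Python 3.11.15, pandas 2.3.3, numpy 2.4.6, scipy 1.17.1, matplotlib 3.10.9) were checked on simulated data.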

Additional observations from a re-analysis of the deposited data

How the results depend on the processing

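No paired analysis was possible because each peptide had 1 library, which also leaves no replicate to leave out. Of 175 values of single named members, 111 moved by more than their 95% counting error against other genes of the same length and count, 73 at the same length, 61 at the same count, 44 at the same GC content and 87 without centring. Low counts limit ATP5E and the rows under 50 normalised reads, whose counting errors are wide. Why ATP5E had few reads was not tested. Without centring the median member difference was -0.42 in PEN-FFW against PEN, -0.54 against PEN-MUT and -0.43 against PEN-WT, and with no filter, where the median gene sits near the floor, -0.41 against PEN, -0.52 against PEN-MUT and -0.37 against PEN-WT. Without centring, members at least 1.2-fold lower in PEN-FFW numbered 75 against PEN (51.3% of tested genes), 79 against PEN-MUT (55.3%) and 75 against PEN-WT (58.5%), and 1 was higher in PEN-MUT against PEN; with no filter, 75 were lower (29.0% of all genes) and 3 higher against PEN, 79 (31.2%) and 2 against PEN-MUT, and 73 (27.1%) and 2 against PEN-WT, with 2 higher in PEN-WT against PEN, 2 in PEN-MUT against PEN and 3 in PEN-WT against PEN-MUT. Median-ratio factors gave 14 of 80 lower in PEN-FFW against PEN (12.7% of tested genes). Against genes of the same mean count the medians were -0.069 in PEN-FFW against PEN and -0.16 against PEN-MUT, with 4 lower against PEN (11.0% of tested genes) and 13 against PEN-MUT (7.66%), 1 lower in PEN-WT against PEN (6.83%), and 0 higher (7.15%) and 1 lower (2.46%) in PEN-WT against PEN-MUT. Against genes of the same length the PEN-FFW medians were -0.086 against PEN, -0.12 against PEN-MUT and -0.072 against PEN-WT, that of PEN-MUT against PEN 0.052 and that of PEN-WT against PEN-MUT -0.060, with 3 lower in PEN-FFW against PEN (8.82%), 7 against PEN-MUT (4.20%), 1 against PEN-WT (2.25%), and 1 in PEN-WT against PEN-MUT (1.18%); PEN-MUT was highest for 49 members, and also with PEN-FFW lowest for 32. Against other genes of the same length and count, chosen after seeing the data as was every order count by comparison genes, the medians were -0.030 in PEN-FFW against PEN, -0.062 against PEN-MUT, -0.026 against PEN-WT and -0.035 in PEN-WT against PEN-MUT. There 2 members were lower in PEN-FFW against PEN (10.4%), 4 against PEN-MUT (6.51%), 1 against PEN-WT (4.24%), 1 in PEN-WT against PEN (6.53%), and 1 lower (2.32%) and 0 higher (6.33%) in PEN-WT against PEN-MUT; PEN-MUT was highest for 44, PEN-FFW lowest for 40, and both for 26. The PEN-WT median against PEN, -0.03 as reported, changed sign, to 0.003 with the same count and 0.02 with the same length and count. With subunits only, which left out UQCRHL, ATP5S, ATP5SL and COX7A2L, 0 were higher in PEN-WT against PEN-MUT. At 1.5-fold 0 members passed in any pair. The cause of these shifts was not tested.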
